A study of Mus musculus with 2 samples.

Results

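Windows rich in hemimethylation were 1 kb tiles of the mouse autosomes in which MC and CM, the CpG states with methylation on 1 strand only, made up at least 30% of the calls of replicate 1. A tile also needed at least 5 CpG sites and at least 40 calls in replicate 1. The members were thus chosen by their MC/CM level in replicate 1, and 8452 of 1193867 autosomal tiles with enough sites and calls met the rule, or 0.708%. Altogether 2165652 autosomal tiles held at least 1 deposited site in that replicate. The libraries were made by SCoTCH-seq, a method that tethers both strands of a DNA fragment with a hairpin and reads C, mC and hmC on each of them. Genomic DNA came from 2 passages of E14 mESCs, an established mouse embryonic stem cell line grown on gelatin in serum/LIF, without further treatment, and they form replicate 1 and replicate 2 of 1 condition. Replicate 1 held 141159011 calls at 13366464 autosomal sites, with a mean depth of 10.6, and replicate 2 held 31102023 calls at 4882356 sites, with a mean depth of 6.37. The sources differ on the share of FBS in the medium, and the passages are 1 line, so they do not stand for other lines or for embryos.

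Each CpG site is a palindrome, and methylation is usually found on both of its strands. Replication pairs each methylated strand with an unmethylated new one, and UHRF1 and DNMT1 then restore the missing mark, so a hemimethylated CpG is the normal intermediate between replication and maintenance. TET enzymes oxidize mC to hmC, and a CpG with hmC on 1 strand can face C (HC/CH), mC (HM/MH) or hmC (HH) on the other.

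Of the 123 windows that also had at least 5 sites and 40 calls in replicate 2, 5 reached 30% in both replicates. Their share was 4.07%, against 1.42% of all 136384 tiles read in both replicates that reached 30% in replicate 2. The following stretches are shown because they hold the densest CpG sites of 3 of these windows, the first ones outside annotated exons. They are plus-strand reference sequence of GRCm38.p6 from RefSeq, 5′ to 3′, with the CpG sites that were deposited in either replicate in capitals.
Intergenic window nearest to Begain, chr12:109107774-109107941: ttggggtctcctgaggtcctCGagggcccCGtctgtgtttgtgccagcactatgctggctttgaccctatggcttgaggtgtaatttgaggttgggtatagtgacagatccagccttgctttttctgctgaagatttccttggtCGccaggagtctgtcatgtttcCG
Intron of Col25a1, chr3:130384015-130384256: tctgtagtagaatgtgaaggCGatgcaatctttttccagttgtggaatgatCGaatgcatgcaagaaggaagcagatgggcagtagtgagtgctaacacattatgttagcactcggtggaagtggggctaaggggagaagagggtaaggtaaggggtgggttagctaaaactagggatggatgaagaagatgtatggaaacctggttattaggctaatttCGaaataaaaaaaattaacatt
Intron of Glis1, chr4:107595056-107595355: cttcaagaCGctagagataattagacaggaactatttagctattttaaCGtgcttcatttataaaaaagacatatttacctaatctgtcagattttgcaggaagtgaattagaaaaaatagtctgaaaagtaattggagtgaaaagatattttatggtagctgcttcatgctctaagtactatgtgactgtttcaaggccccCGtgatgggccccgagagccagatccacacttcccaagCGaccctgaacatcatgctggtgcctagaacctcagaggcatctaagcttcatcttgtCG
The intergenic stretch held 4 CpG sites over 168 bases, all of them deposited in both replicates, and 13 of its 41 calls in replicate 1 and 7 of its 24 calls in replicate 2 were MC/CM. In the Col25a1 stretch, 3 of the 4 CpG sites were deposited, and MC/CM made up 8 of 26 calls and 9 of 20 calls. The Glis1 stretch gave 17 of 35 and 11 of 35 calls, from 2 and 5 sites. All 3 deposited sites of the Col25a1 stretch had MC/CM calls in both replicates.

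In replicate 1, MC/CM of single windows ranged from 30% to 48.9%, with a median of 31.8%. Most windows thus sat close to the threshold: 4427 lay between 30% and 32%, 1202 reached 35% and 145 reached 40%. The window with the most calls at exactly 30%, at chr13:38584000-38584999, had 45 MC/CM calls of 150, and the tile just below the threshold, at chr9:61146000-61146999, had 38 of 127 (29.9%). A further 7894 tiles lay between 28% and 30%. The highest window, an intergenic tile at chr5:75925000-75925999 nearest to Kdr, a VEGF receptor gene, had 22 MC/CM calls of 45 at 5 sites, with a 95% interval of 33.7% to 64.2%. All intervals are exact Clopper-Pearson intervals, and they cover counting error only and are too narrow where 1 read pair covered neighbouring sites.

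The remaining states of replicate 1 are a description, since the states of a tile sum to the whole and were therefore used by the rule. Summed over the windows, MC/CM took 32.4% of calls, MM 50.8%, CC 10.9%, HC/CH 2.61%, HM/MH 2.98% and HH 0.319%. In the other 1185415 tiles the levels were lower for MC/CM and higher for the rest, with MC/CM at 12.6%, MM at 55.04%, CC at 23.3%, HC/CH at 4.38%, HM/MH at 4.14% and HH at 0.478%. The windows were therefore mostly methylated tiles, with a median of 69.1% methylated cytosines against 71.7% in the other tiles. An MC/CM call counts as methylated on 1 strand only, so the rule bears on this value. In replicate 2, the 123 windows read with the same minimum had a median of 80.4%, above the 71.4% of other tiles. The levels of HC/CH, HM/MH and HH include miscalls, since methylated lambda DNA in this library also gave hydroxymethylated calls, which were not subtracted. By site, also a description of values the rule used, 93.8% of the 50543 sites in windows had at least 1 MC/CM call against 62.1% in other tiles, 5771 windows (68.3%) had such a call at every site against 11.6% of other tiles, and every window had such calls at 2 or more sites. The site with most MC/CM calls held a median of 32% of those of its window, close to the 33.3% in other tiles. Both orientations occurred, with more MC than CM in 4129 windows, more CM than MC in 3800 and equal numbers in 523. In 6 windows all calls were of 1 orientation.

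**Figure D1:**
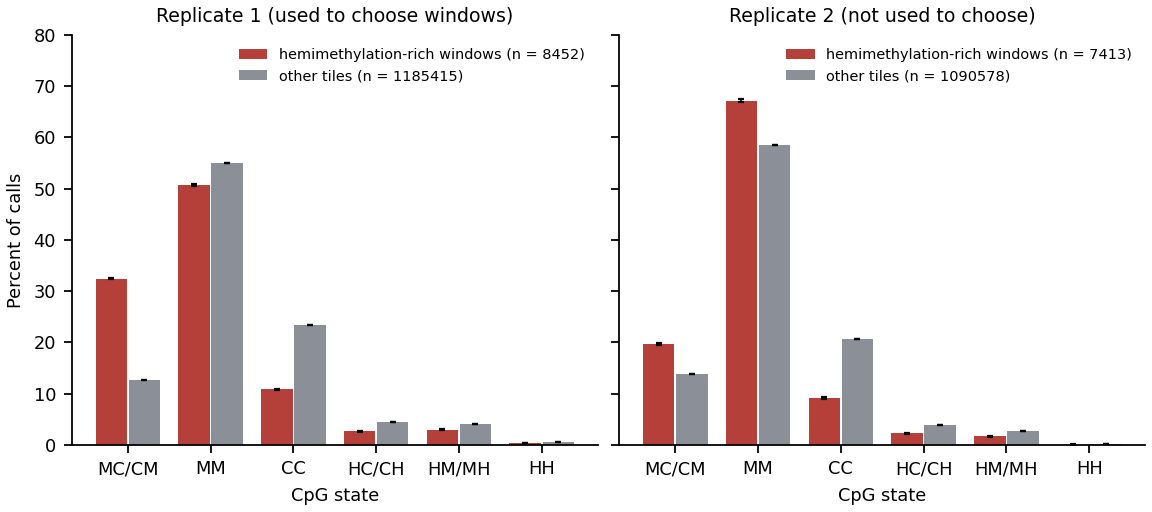
CpG states in hemimethylation-rich windows (red) and other tiles (grey), as percent of calls, in replicate 1 and replicate 2; error bars are 95% intervals from counting error, and the replicate 2 panel takes every tile with a site there. In replicate 2 MC/CM was 19.7% in windows and 13.9% in other tiles, and CC was lower in windows in both panels.

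Replicate 2 was not used to choose the windows, so it gives the test of their MC/CM level. Of the 8452 windows, 1039 had no deposited site in replicate 2, 7290 had a site but fewer than 5 sites or 40 calls, and 123 could be read with the same minimum as in replicate 1. MC/CM in these 123 windows was 17.2% (95% interval 16.2% to 18.2%) against 11.2% in 136261 other tiles. The difference of 5.93 percentage points was positive on 19 of 19 autosomes by an exact permutation test that flips signs of autosomes (two-sided, Benjamini-Hochberg adjusted p = 5.72e-06). Autosomes are blocks of a single library and not replicates, and with 2 libraries in 1 condition no test between samples was possible. The level of the windows was therefore higher than that of other tiles in a library that had not selected them, and lay well below the threshold of 30%.

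Methylated lambda DNA read in the same libraries gave 3.51% MC/CM in replicate 1 and 6.43% in replicate 2, and unmethylated pUC19 gave 0.264% and 0.461%. The background of MC/CM called on fully methylated DNA was thus higher in replicate 2. On lambda, MM took 91.0% and CC 0.338% of calls in replicate 1, and 92.4% and 0.717% in replicate 2. The remaining lambda calls were hydroxymethylated states, a larger share in replicate 1 than in replicate 2. With the MC/CM background subtracted from each tile, 4282 tiles passed the rule and 46 of them could be read in replicate 2.

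Few windows stayed at the threshold. In replicate 2, 5 of the 123 windows reached 30% again, or 4.07% (95% interval 1.33% to 9.23%). Of all 136384 tiles read in both replicates, 1933 reached 30% in replicate 2, or 1.42%, and of the tiles that were not windows 1928 did. The interval of the windows held the share of 1.42%. Single windows ranged from 2.44% to 39.0% in replicate 2, with a median of 16.7%, and the other tiles ranged from 0% to 54.3%, with a median of 11.5%, so the ranges overlapped. The quartiles of the windows lay at 12.9% and 21.1% and those of the other tiles at 6.45% and 16.7%. The share at the threshold depended on how tiles were cut and read. With tiles shifted by 500 bases, 17 of 132 windows reached 30% again (12.9%, against 1.49% of all tiles read), and with 25 calls in place of 40 in replicate 2, 57 of 533 did (10.7%, against 2.74%). With no minimum in replicate 2, a setting chosen after seeing the data, 1572 of 7413 windows were at 30% or more (21.2%, against 10.6% of all tiles read), where many tiles had a handful of calls. When the rule was applied to replicate 2 instead, 1951 tiles were chosen and 1933 of them could be read in replicate 1, where 5 reached 30% (0.259%, against 0.0902% of all tiles read).

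**Figure D2:**
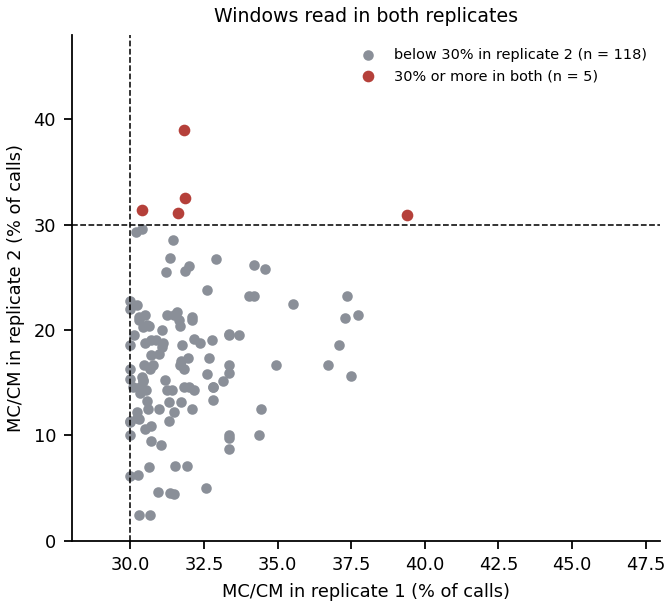
MC/CM as percent of calls in replicate 1 (horizontal) and replicate 2 (vertical) for the 123 windows read in both; each point is a window and dashed lines mark 30%. The 5 red points reached 30% in both replicates, and the other 118 windows lay below it in replicate 2.

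The 5 windows at 30% in both replicates lay on 5 chromosomes. The intergenic window at chr12:109107000-109107999, 39.3 kb from the TSS of Begain, had MC/CM of 31.9% in replicate 1 and 32.6% in replicate 2 (36 of 113 and 14 of 43 calls). An intron of Col25a1, which encodes a membrane-bound collagen, held a window at chr3:130384000-130384999 with 31.8% and 39.0% (21 of 66 and 16 of 41 calls). A window that overlaps an exon of Rbm26, the gene of an RNA-binding protein, at chr14:105131000-105131999, had 31.6% and 31.1% (37 of 117 and 14 of 45 calls). These first windows were close to the threshold in replicate 1, and their intervals in replicate 2 began between 18.2% and 24.2%. The window in an intron of Glis1, the gene of a Krüppel-like zinc finger factor, at chr4:107595000-107595999, had 39.4% and 31.0% (26 of 66 and 13 of 42 calls). The window in an intron of Sfmbt2, which encodes a Polycomb group protein, at chr2:10511000-10511999, had 30.4% and 31.4% (31 of 102 and 16 of 51 calls). MM was the most frequent state in all 5 of them, from 46.3% to 61.9% of calls in replicate 2. Among the next windows by the lower of both replicates, an intergenic tile nearest to Plcl1 had 29.5% in replicate 2 and a tile in an intron of the antisense gene Gm31641 had 29.3%, both just short of the threshold.

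The windows that ranked highest in replicate 1, among the 72 with at least 80 calls there that could be read in replicate 2, were all lower in replicate 2. They were picked by their value in replicate 1, so the fall is a description and not a test. The window in an intron of Tmem156, at chr5:65090000-65090999, went from 37.4% (34 of 91 calls) to 23.3% (10 of 43). A window in the lincRNA gene Gm30239 went from 37.3% to 21.2%, and a window in an intron of Prmt2, the gene of an arginine methyltransferase, from 36.7% to 16.7%. The windows in Ppp4r3a, which encodes a regulatory subunit of protein phosphatase 4, and in Fyb, which encodes an adaptor protein of T cells, had 35.0% and 34.6% in replicate 1 and 16.7% and 25.8% in replicate 2. Among the remaining 5 of the first 10, intergenic tiles nearest to Castor2, Ndufa4, Cntrob and Rasgrp1 read 15.9% to 26.2% in replicate 2. The last, which overlaps the gene of the tryptophan-degrading enzyme Ido2, fell from 33.3% to 10% (4 of 40 calls). None of these 10 windows reached 30% in replicate 2, where 1.42% of all tiles read in both replicates did. The upper ends of the intervals of these windows in replicate 2 lay between 23.7% and 42.0%.

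Without a minimum of sites and calls in replicate 2, the 7413 windows with a site carried 114919 calls there. MC/CM was 19.7% in them (95% interval 19.4% to 19.9%) and 13.9% in 1090578 other tiles, a difference of 5.74 percentage points on 19 of 19 autosomes (adjusted p = 3.8e-06 by the exact sign-flip permutation test, the smallest it can give). By autosome, the windows ranged from 18.9% on chromosome 17 to 20.5% on chromosome 6, and the other tiles from 13.0% on chromosome 7 to 14.5% on chromosome 3. The windows did not overlap with the other tiles at this scale.

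The level in replicate 2 rose only slightly with the level that had chosen the window. Windows between 30% and 32% in replicate 1 had 19.4% MC/CM in replicate 2, those between 32% and 35% had 19.7%, those between 35% and 40% had 20.6%, and the 124 at 40% or more had 21.2% (95% interval 19.4% to 23.2%). Tiles below the threshold continued the same order without a step. Tiles between 25% and 30% in replicate 1 had 18.9% in replicate 2, those between 20% and 25% had 17.9%, those between 15% and 20% had 16.5%, and those under 5% had 5.29%. The windows are thus the upper end of a graded series of tiles, and the gap in replicate 2 between them and the tiles just below the threshold was under 1 percentage point for windows between 30% and 35%. Windows with 40 to 59 calls in replicate 1 had 19% in replicate 2 and windows with 100 calls or more had 19.9%, with 95% intervals of 18.6% to 19.4% and 19.1% to 20.8%.

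**Figure D3:**
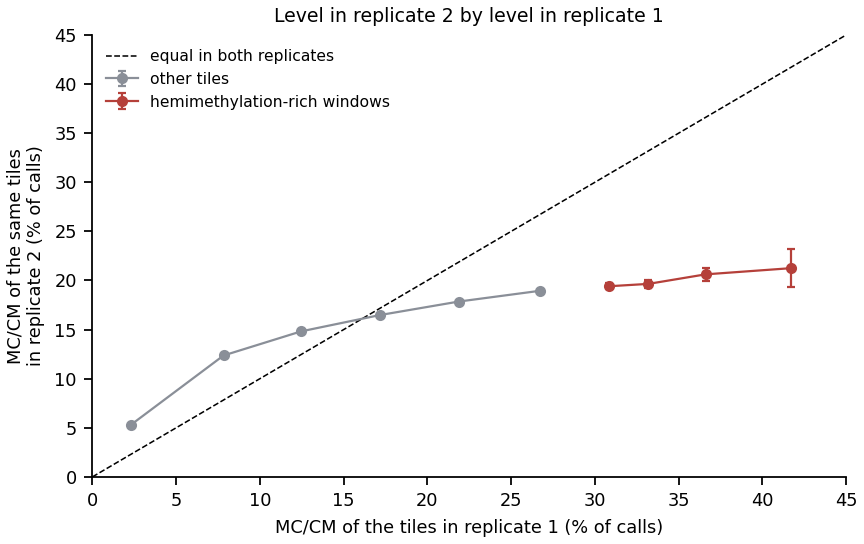
MC/CM in replicate 2 (vertical) of tiles grouped by their MC/CM in replicate 1 (horizontal), both as percent of calls, for other tiles (grey) and hemimethylation-rich windows (red); error bars are 95% intervals from counting error and the dashed line marks equal levels. Levels in replicate 2 rose from 5.29% to 18.9% below the threshold and from 19.4% to 21.2% above it.

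Set against all other tiles, the windows were rich in MM and poor in CC and hmC in replicate 2. In the 123 windows read with the full minimum, MM took 70.4% of calls against 50.6% in other tiles, and CC took 8.05% against 30.7% (each on 19 of 19 autosomes, adjusted p = 5.72e-06, exact sign-flip permutation test). The size of these differences, 19.8 and -22.6 percentage points, depended on the tiles compared, in settings chosen after seeing the data. Without a minimum the MM difference was 8.62 points and the CC difference -11.6, and among tiles with 5 or 6 sites, also without a minimum, they were 2.83 and -4.88. Against other tiles with 60% to 80% methylated cytosines in replicate 1, read in replicate 2 without a minimum, the MM difference was -0.314 points and did not pass (adjusted permutation p = 0.0992). With the full minimum the MM difference from that band was 2.51 points and passed (14 of 19 autosomes, adjusted permutation p = 0.0168). HC/CH, hmC facing an unmodified cytosine, was 2.23% against 4.43% (19 of 19 autosomes, adjusted permutation p = 5.72e-06). HM/MH, hmC facing mC, was 1.97% against 2.82% (17 of 19 autosomes, adjusted permutation p = 0.00279). HH was 0.141% (95% interval 0.0608% to 0.277%) against 0.227%, which did not pass the test (adjusted permutation p = 0.129). Hydroxymethylated states together made up 4.72% of modified calls in windows and 10.8% in other tiles. Without the minimum, HH was 0.0653% against 0.183% and passed (19 of 19 autosomes, adjusted permutation p = 3.8e-06). The differences of the hmC states changed when the replicates were exchanged, which changed both the tiles chosen and the library read. In tiles chosen by replicate 2 and read in replicate 1 HM/MH was 4.42% against 3.87%, higher on 19 of 19 autosomes. The HC/CH difference there was -0.554 percentage points, and the HH difference was 0.0251 and did not pass. The part of the hydroxymethylated calls on methylated lambda, more frequent in replicate 1, was not tested.

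A tile without methylation cannot be hemimethylated, so the windows were also set against tiles of intermediate methylation. In 21458 other tiles with 40% to 60% methylated cytosines in replicate 1, MC/CM in replicate 2 was 11.9%, which was 5.29 percentage points below the windows (18 of 19 autosomes, adjusted p = 9.16e-06, exact sign-flip permutation test). The tiles of intermediate methylation held more hmC, with HC/CH at 7.22% against 2.23% in windows, HM/MH at 4.29% against 1.97% and HH at 0.437% against 0.141%, and all 3 differences passed (adjusted p from 7.63e-06 to 0.000145). Because most windows lay at 60% to 80% methylated cytosines in replicate 1, 64601 tiles of that band were added as a comparison after seeing the data. Their MC/CM was 14.5%, and the difference from the windows shrank to 2.66 percentage points (17 of 19 autosomes, adjusted permutation p = 0.000412). HC/CH at 4.17% and HM/MH at 3.12% were again above the windows (adjusted permutation p = 2.29e-05 and 0.000755), and HH at 0.181% was not distinguished (adjusted permutation p = 0.466). Both bands were set by methylation in replicate 1, which includes MC/CM calls, so they did not match the windows in replicate 2. MM there was 70.4% in windows, 67.9% in the band of 60% to 80% and 49.4% in that of 40% to 60%. Within 60% to 70%, 47 windows had 18.3% MC/CM in replicate 2 against 13.9% in other tiles. Within 70% to 80%, 63 windows had 16.1% against 14.8%. As a share of purely methylated calls, MC/CM was 19.6% in windows and 18.2% in other tiles in replicate 2.

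Windows held few CpG sites. Their reference sequence had 7.35 CpG sites per tile against 11.9 in other tiles that passed in replicate 1, a GC content of 40.6% against 44.1%, and an observed over expected CpG ratio of 0.182 against 0.236. They were also more often soft-masked, which marks repeats, at 27.0% of bases against 23.2%. GC content and the soft-masked share differed in the same direction on 19 of 19 autosomes (adjusted p = 3.8e-06, exact sign-flip permutation test). The number of deposited sites was part of the rule, so CpG sites per tile and the deposited share are a description. So is the CpG ratio, which is computed from the number of CpG sites. Of the CpG sites of windows, 85.2% were deposited against 82.1% in other tiles. The number of sites moved together with the number of calls, with a median of 60 calls per window and 83 per other tile, and with the chance to pass: 2.00% of tiles with 5 sites were windows, 1.194% with 6, 0.674% with 7, 0.314% with 8 or 9 and 0.0760% with 10 to 14. Only 1 of 74093 tiles with 15 to 19 sites was a window, and none of 33076 with 20 or more. By calls, the share fell from 1.70% of tiles with 40 to 59 calls to 0.0199% of those with 150 to 199. The part of counting error in the choice of tiles with few calls was not tested.

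Among tiles with few deposited sites most of these differences were smaller. Of 395699 tiles with 5 or 6 sites, a comparison chosen after seeing the data, 6371 were windows (1.61%), 4078 of them with 5 sites and 2293 with 6. This narrowed the difference in site number but did not remove it, with 6.65 CpG sites per tile in the reference against 7.24 in the other tiles. The windows there still had a lower GC content, 40.1% against 41.4% (19 of 19 autosomes, adjusted p = 6.36e-06, exact sign-flip permutation test). The observed over expected CpG ratio, again a description, was 0.170 against 0.172. The soft-masked share was 28.2% against 28.4% (adjusted permutation p = 0.341). MC/CM in replicate 2, read without a minimum, was 19.99% in these windows and 16.4% in the other tiles, so the difference was 3.54 percentage points (19 of 19 autosomes, adjusted permutation p = 4.58e-06).

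The windows lay away from genes' starts. By their centres, 51 windows (0.603%) were in promoters, meaning within 1 kb of a protein-coding TSS, against 2.56% of other tiles. Exons held 349 windows (4.13% against 6.81%) and intergenic sequence 3919 (46.4% against 40.9%). These 3 differences held on 19 of 19 autosomes (adjusted p = 4.77e-06, exact sign-flip permutation test), whereas the share in introns, with 4133 windows, was 48.9% against 49.7% (11 of 19 autosomes, adjusted p = 0.112). The median distance to a protein-coding TSS was 73.3 kb for windows and 48.7 kb for other tiles (adjusted permutation p = 4.77e-06). Among tiles with 5 or 6 sites none of these differences passed: promoters held 0.597% of windows and 0.738% of other tiles, exons 4.02% and 3.96%, introns 48.3% and 46.5%, and intergenic sequence 47.1% and 48.8%, with adjusted p from 0.109 to 0.852. The location of windows with 5 or 6 sites thus did not differ detectably from that of other tiles with 5 or 6 sites. Windows with more sites were not compared in this way.

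The level in replicate 2 varied little with location within the windows. Without a minimum it was 19.2% in the 47 promoter windows with a site there (95% interval 16.4% to 22.2%), 20.5% in exons, 19.7% in introns and 19.6% between genes. In other tiles the same classes ran from 4.66% in promoters to 14.8% between genes. Windows with under 10% soft-masked bases had 19.4%, and windows that were at least 50% soft-masked had 19.1% (95% interval 18.4% to 19.9%).

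Windows were scattered along all autosomes. Their share of tiles ranged from 0.582% on chromosome 11 to 0.861% on chromosome 13, with 259 to 693 windows per autosome. Of all windows, 8376 stood alone and 76 formed 38 pairs of adjacent tiles, and no longer run occurred. Of 6275 windows with a readable neighbour, 76 were next to another window (1.21%), and 0.890% of other tiles were next to a window. Among the pairs were 1 in Selp, the gene of the adhesion molecule P-selectin, with 30.7% MC/CM over 163 calls of replicate 1, and 1 in Nr6a1, the gene of an orphan nuclear receptor of the early embryo, with 31.1% over 164 calls. A pair in Macrod2 had 34.6% over 104 calls, and intergenic pairs nearest to Edem3 and Cdh4 had 31.9% and 36.6%.

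The elevation in replicate 2 fell off with distance from the window. In replicate 2, without a minimum, tiles 1 kb away from a window had 16.7% MC/CM, tiles 5 kb away 15.7%, tiles 100 kb away 15.5% and tiles 1000 kb away 14.8%. Around other tiles the level was 13.9% at 1 kb and 14.4% at 1000 kb. The windows themselves had 19.7%, so part of the elevation over other tiles was still present 1 kb away and fell gradually from there. In replicate 1, where the 32.4% in the windows is the value that chose them, the level was 15.3% at 1 kb and 14.4% at 10 kb, against 12.6% and 12.8% around other tiles. Restricted to flanking tiles that passed the full minimum in replicate 2, the level 1 kb away from windows was 14.1%. The levels given without a minimum are no comparison for it. Other tiles that passed the minimum in both replicates had 11.2% themselves.

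**Figure D4:**
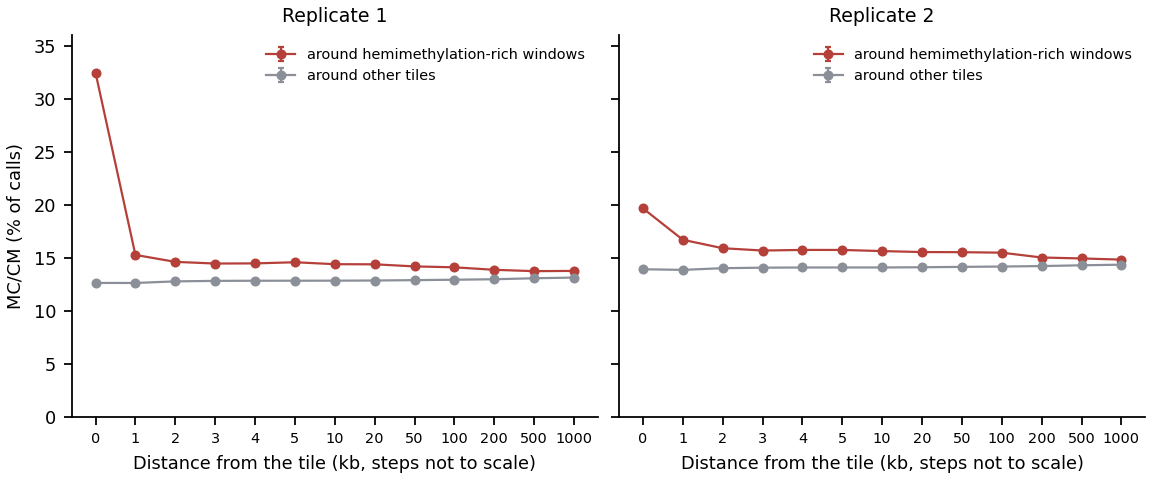
MC/CM as percent of calls at increasing distance in kb from hemimethylation-rich windows (red) and from other tiles (grey), in both replicates, with 95% intervals from counting error that are mostly smaller than the points; distances are spaced evenly and not to scale. In replicate 2 the level around windows fell from 19.7% to 16.7% at 1 kb and 14.8% at 1000 kb, and around other tiles it stayed between 13.9% and 14.4%.

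Sites with an MC/CM call in replicate 1 had a higher MC/CM level in replicate 2, in windows and in other tiles. In windows, 16252 sites covered in both replicates had an MC/CM call in replicate 1, and 764 had none. Their MC/CM levels in replicate 2 were 20.002% and 16.5%, a difference of 3.55 percentage points (16 of 19 autosomes, p = 7.63e-05, exact sign-flip permutation test). In other tiles the same split gave 16.3% and 9.49%, a larger gap of 6.84 points. The part of the depth and methylation of the sites in these gaps was not tested. With the full minimum, orientation was not carried over detectably. There the 53 windows with more MC in replicate 1 had an excess of MC over CM of 14.5% of MC/CM calls in replicate 2. The 64 with more CM had an excess of 3.48% (12 of 19 autosomes, p = 0.563, exact sign-flip permutation test). With 25 calls in replicate 2 the difference was 7.44 percentage points and did not pass (permutation p = 0.0570). Without the minimum the difference was 3.96 percentage points and passed (permutation p = 0.0128).

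The bases beside the CpG were related to the level in windows and elsewhere alike. With both strands joined, the CpG and the base on either side form 10 classes. In replicate 2 windows, MC/CM was highest at TCGA (22.1%), ACGA (21.4%) and ACGT (20.05%) and lowest at CCGG (16.6%) and GCGC (16.2%). The other tiles had the same classes at their ends, with 16.9% at TCGA, 16.0% at ACGA and 10.9% at GCGC. Every class was higher in windows than in other tiles. Windows also held more of the high classes, with ACGA at 20.3% of sites and TCGA at 9.47%, against 15.1% and 6.38% in other tiles. These values are a description of 1 library, without a test.

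Windows touched 2516 of the 19305 autosomal protein-coding genes that had a tile. Among the genes with most windows were very long ones: Macrod2, which encodes an ADP-ribose hydrolase, had 20 among 754 tiles, and Dab1, which encodes an adaptor of Reelin signalling, 13 among 730. Pard3b, a polarity gene, had 11 among 483 (2.28%), and the annotated span of Fgfr2, the gene of an FGF receptor, had 11 among 2154 (0.511%). Further down were Syn3, a synapsin gene, with 9 among 309, Fars2, the gene of a mitochondrial tRNA synthetase, with 9 among 347, and Adgrl3, a latrophilin gene, with 9 among 412. Gm37240 and Gm20388, gene models with 907 and 3809 tiles, also had 9 each (0.992% and 0.236%). The shares of Fgfr2 and Gm20388 were below the 0.708% of all tiles, and those of the other genes named here by count were above it. The annotated spans of Fgfr2, Gm37240 and Gm20388 overlap other genes, and a tile was counted for every gene it overlapped. By share, among genes with at least 20 tiles, Clvs2 led with 3 windows among 21 tiles, followed by Ankrd42 and Ccdc173 with 3 among 24. Anxa10, Fmo2, Terb1 and Tstd2 had 2 among 20, and Ccr6, Cyld and Polb, the last of which encodes a DNA repair polymerase, had 2 among 21. Shares from 2 or 3 windows are set by few tiles and carry wide counting error.

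Of 14 gene groups, 3 had a 95% interval that left out 0.708%, the share of all tiles that met the rule, and no test between groups was made. Chemosensory receptor genes lay above it, with 29 windows among 2181 tiles of olfactory receptor genes (1.33%, 95% interval 0.892% to 1.90%) and 16 among 811 tiles of vomeronasal receptor genes (1.97%, 1.13% to 3.18%). Cytochrome P450 genes, whose products oxidize steroids and foreign compounds, had 14 among 1072 (1.31%, 0.716% to 2.18%). The Zfp genes of zinc finger proteins had 38 among 7253 (0.524%, 0.371% to 0.718%). Potassium channel genes had 46 among 5645 (0.815%), and genes with symbols that begin with Col 26 among 3408 (0.763%), and the intervals of these last 3 groups all held the background share. Families were taken by the start of the symbol, so the Col group holds the collagen genes and also Col4a3bp, the gene of a ceramide transfer protein.

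Developmental and pluripotency genes had few tiles and few windows. None of 271 tiles in Hox genes was a window, with a 95% interval up to 1.35%, and none of 283 in naive pluripotency genes, with an interval up to 1.30%. Clustered protocadherin genes had 1 window among 359 tiles, in Pcdhb14, keratin genes 2 among 453 and histone genes 1 among 95. Imprinted genes had 6 among 902 (0.665%), in Inpp5f, Kcnq1, Mest, Rasgrf1, Sgce and Snrpn. Germline genes had 3 among 232, in Brdt, Ddx4 and Sycp1, and genes of DNA methylation and oxidation had 3 among 545, in Hells, a chromatin remodeller, Mbd2, a methyl-CpG binding protein, and Tet3, a TET dioxygenase. The intervals of all of these groups held the background share. By gene type, windows made up 0.628% of tiles in protein-coding genes, 0.776% in lincRNA genes, 0.624% in antisense genes and 0.538% in processed pseudogenes. The groups differ in CpG density and calls per tile, which moved with the share of windows, and their part in these values was not tested.

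**Figure D5:**
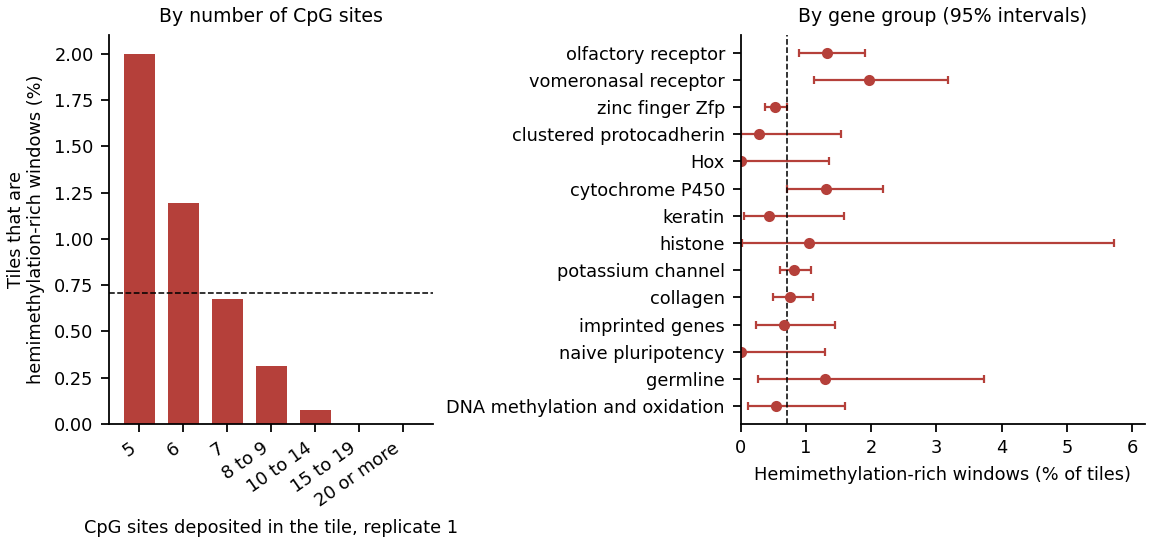
Percent of tiles that met the rule by the number of CpG sites deposited in replicate 1 (left, bars from 0) and by gene group (right, points with 95% intervals from counting error); the dashed lines mark the share of 0.708% over all tiles. The share fell from 2.00% at 5 sites to none at 20 or more, and the intervals of olfactory and vomeronasal receptor and cytochrome P450 genes lay above the dashed line.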

How the data were processed

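Genomic DNA of both passages was read by SCoTCH-seq. Per the study's methods, the authors selected read pairs by hairpin content with Cutadapt, aligned them to GRCm38 (mm10) using BSBolt, took out duplicates using Picard and called 1 of 9 CpG states per read pair and site. For each replicate they deposited, per site and state, the count of calls, the total depth and the percent of depth, after removing sites under 5 calls, blacklisted regions and sites with repeated calling errors. The deposited counts are calls as made, and no correction from spike-in controls was applied to them here except in 1 alternative. The deposited counts summed to the depth at every autosomal site, and every site lay on a CpG of GRCm38.p6.

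Counts were summed over 1 kb tiles with SciPy 1.17.1 and NumPy 2.4.6 under Python 3.11.15, and levels are percentages of summed calls. Genes were taken from GENCODE vM21. Members, gene lists and tests were chosen with earlier results of these data known. Windows were named by rank on replicate 1, by the lower of both replicates or by run length, and genes by number or share of windows; 1 gene that this rule names is not reported here. A tile was read in replicate 2 with the same minimum of 5 sites and 40 calls. Differences per autosome were tested, two-sided, by flipping their signs in all combinations (an exact permutation test), with Benjamini-Hochberg adjustment over the 6 states, the 5 sequence features or the 5 location measures and a threshold of 0.05; with 19 autosomes its smallest p is 3.8e-06. The steps were tested on simulated data. Alternatives were thresholds of 25% and 40%, other minimums, shifted tiles, exchanged replicates, background subtraction and other comparison tiles. Comparisons without a minimum in replicate 2, with the band of 60% to 80% and with 5 or 6 sites were added after seeing the data.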

Additional observations from a re-analysis of the deposited data

Results flagged for a closer look

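Chromosome X was not part of the comparisons, and it held tiles that met the same rule. In replicate 1, 282 of 10569 tiles of chromosome X with enough sites and calls had MC/CM of 30% or more (2.67%), against 0.708% of autosomal tiles. Tiles of chromosome X had a median of 51 calls, and the autosomal tiles below the threshold had a median of 83. In replicate 2 only 36 tiles of chromosome X passed the minimum and none reached 30%. This allows a share of up to about 8.33%, taken as 3 divided by the number of tiles and not as an exact interval. Read without a minimum, 116 of the 282 tiles had 19.6% MC/CM in replicate 2 (95% interval 17.3% to 22.0%), and 4735 other tiles of chromosome X had 14.2% (13.9% to 14.6%). The part of the lower number of calls in the higher share on chromosome X was not tested.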

How the results depend on the processing

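The differences of MC/CM, MM, CC and HC/CH from all other tiles in replicate 2 kept their direction and stayed past the threshold under every alternative run for them, as did MC/CM, HC/CH and HM/MH against tiles of intermediate methylation. Their sizes moved. With no minimum in replicate 2 the MM difference went from 19.8 to 8.62 points and CC from -22.6 to -11.6, and with 5 or 6 sites and no minimum MC/CM was 3.54, MM 2.83, CC -4.88, HC/CH -0.862 and HM/MH -0.572. HC/CH was -1.40 with sites of 10 or more calls and -0.554 with exchanged replicates. Against tiles of intermediate methylation, HM/MH was -0.403 with exchanged replicates. In the band of 60% to 80%, MC/CM was 2.66, MM 2.51, HC/CH -1.93 and HM/MH -1.15, which all passed. In that band with no minimum, MC/CM was 3.67, HC/CH -1.27 and HM/MH -1.01, and MM turned to -0.314 and did not pass. No paired analysis was possible because both samples belong to 1 group. With the threshold at 40%, 145 tiles were members and none met the minimums in replicate 2, and with 80 calls in replicate 2 no member was left, so states and repeated membership gave no value there.

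Windows at the threshold again made up 16.7% at a threshold of 25% (5.21% of all tiles read), 12.9% with shifted tiles, 10.7% with 25 calls in replicate 2, 21.2% with no minimum, 0.259% with exchanged replicates, 2.17% with the control background subtracted (0.513%) and 6.36% with only sites in both replicates (1.48%). The HH difference from other tiles passed the test at -0.146 percentage points with 25%, -0.102 with sites of 10 or more calls, -0.135 with 25 calls in replicate 2, -0.118 with no minimum and -0.0528 with 5 or 6 sites and no minimum. Exchanging the replicates turned HM/MH to 0.542 and HH to 0.0251 points above other tiles, and the HH difference from the band of 60% to 80% was -0.0405 and did not pass. Orientation passed at 3.96 points with no minimum.

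The intron share passed at -1.06 points with 25% and -1.90 with shifted tiles. It turned to 1.46 with sites of 10 or more calls and 1.74 with 5 or 6 sites, which did not pass, and to 5.10 without replicate 1, which passed (19 of 19 autosomes, adjusted p = 9.54e-06, exact sign-flip permutation test). At 40% the difference in deposited sites, a description, was 3.78 points, and those in promoters (-0.472), exons (-4.04) and intergenic sequence (4.59) no longer passed. With 5 or 6 sites, soft-masked bases (-0.180), exons (0.0542) and intergenic sequence (-1.65) turned, and promoters (-0.142) and TSS distance (4.6 kb) did not pass. Without replicate 1, the remaining features kept their direction, from -7.75 points for promoters to 17.2 kb for TSS distance. The level at flanking tiles was 10.9% with 40%, 14.8% with 25 calls, 8.75% with 80 calls and 14.5% with equally weighted tiles. The cause of these changes was not tested. Depth limited replicate 2, where 7290 windows with a site did not pass the minimum, and the 123 that did had 40 to 68 calls each.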
